A study of Mus musculus with 22 samples.

Results

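The genes described are 9 of the 53379 genes in a count table of messenger RNA from sorted hippocampal nuclei of the mouse: Stat2, Stat3, Stat4, Stat5a, Stat5b, Stat6, Jak1, Jak2 and Sbno2. They were taken by gene family (STAT transcription factors and JAK kinases), together with Sbno2, and found in the table through their Ensembl identifiers. They were also selected on the measured kainate-against-sham differences, since earlier results of these libraries were known and Sbno2 had been called in both cell types. The kainate values below are therefore a description, and only the comparisons between neurons and glia are read as tests. These comparisons share their libraries with the kainate differences and are not fully independent of the choice.

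Adult male C57/BL6N mice, 8 weeks old when acquired and then acclimatised for 4 weeks, received 70 nl of 20 mM kainate or saline (NaCl, the sham group) above the right hippocampus. Kainate is a glutamate receptor agonist that elicits status epilepticus. Left hippocampi, contralateral to the injection, were collected after 24 h, pooled over 4 or 2 mice, and their nuclei were sorted on the neuronal protein NeuN into a NeuN+ fraction (neurons) and a NeuN– fraction (glia). The groups were kainate neurons (n = 3 libraries), sham neurons (n = 3), kainate glia (n = 3) and sham glia (n = 2, replicates 1 and 3). No group carried a transgene or deletion. Each library stands for a pool and not for a single mouse, each replicate number of a treatment gave a neuronal and a glial library except for the glia of sham replicate 2, and kainate mice were included only when they had convulsive seizures. An extraction note among the labels speaks of the right side, but titles and methods give the left, which is followed here.

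JAK kinases sit on the intracellular tails of cytokine and growth factor receptors. When a ligand brings the receptor chains together, the kinases phosphorylate the receptor and then the STAT proteins, which pair, enter the nucleus and bind DNA. SOCS proteins, themselves products of STAT target genes, close the loop by blocking the kinases. In brain tissue, STAT3 is best known as a driver of reactive astrocytes, downstream of cytokines of the interleukin 6 family that share the receptor chain gp130. Sbno2 encodes a transcriptional co-regulator whose transcription rises downstream of interleukin 10 and interleukin 6 type cytokines through STAT3. Transcript levels, the quantity measured here, do not report phosphorylation of these proteins.

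Totals ran from 12058875 to 45428465 counts per library, and all 9 genes passed the filter on low counts, as 9 of 40714 genes tested. Levels are given as CPM (counts per 1000000 counts of the library) after scaling with TMM factors, which ranged from 0.700 to 1.68. A call means a false discovery rate (FDR) under 0.25, the threshold of the study, in edgeR's quasi-likelihood test with Benjamini-Hochberg adjustment over all genes tested. The 6 neuronal markers were all called higher in neurons in both treatments, and their summed CPM was 2835 to 6646 in neuronal and 465 to 745 in glial libraries. The 4 oligodendrocyte and the 6 microglial markers were all called lower in neurons in both treatments. Astrocyte markers were called lower in neurons for 5 of 5 genes in sham and 4 of 5 in kainate mice, and both oligodendrocyte precursor markers were lower in both. Pericyte markers were called lower in neurons for 3 of 3 genes in sham and 2 of 3 in kainate mice, endothelial markers for 1 of 3 and 2 of 3, and none of the 5 tested blood leukocyte markers was called. With the pool as a block in the fit, 1 of the 5 leukocyte markers was called lower in neurons in sham mice (15.7% of all genes). In kainate mice 3 of the 5 were then called lower (27.9% of all genes). Libraries numbered 1 held 22767 to 25629 genes with at least 10 counts and the others 31523 to 42046. Scarce RNA limited a pair of glial libraries, kainate replicate 2 and sham replicate 1, to an input near 0.05 ng amplified over 15 PCR cycles, where the other 9 had 1 ng and 10 cycles. In sorted bulk nuclei, fewer nuclei of a cell type and less RNA per nucleus cannot be told apart.

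RefSeq gives 14 promoters for the 9 genes (GRCm38.p6, 250 bases before to 50 after a start site). These were searched on both strands for the STAT pattern TTCNNNGAA, the AP-1 pattern TGANTCA, the cyclic AMP response element TGACGTCA and the interferon-stimulated response element (a TTTC half-site repeated after 2 bases), none of which contains another. The STAT pattern, the spaced palindrome that paired STAT proteins recognise, was found in 2 of the 14, and both belong to Sbno2. It occurs in 8.3% of all 32851 promoters. The letters begin 24 bases before one Sbno2 start site and 26 bases before another, while the third Sbno2 promoter holds none of the patterns. The response element that STAT2 binds together with its partner IRF9 was matched in the Stat2 promoter, 222 bases before the start, and in one of the Stat4 promoters, 97 bases before it, as in 3.44% of all promoters. Jak1 holds a cyclic AMP response element 101 bases before its start (1.79% of all promoters), and the AP-1 pattern, present in 7.81% of all promoters, was in none of the 14. The sequences printed are the pair of Sbno2 promoters with a STAT match, the Stat2 promoter with its match, and, for contrast, the single Stat3 promoter, which holds none. They read 5′ to 3′ along the gene's strand, and capitals mark the matched letters. A match describes letters and does not show binding.
Sbno2, chr10:80101138-80101437, minus strand: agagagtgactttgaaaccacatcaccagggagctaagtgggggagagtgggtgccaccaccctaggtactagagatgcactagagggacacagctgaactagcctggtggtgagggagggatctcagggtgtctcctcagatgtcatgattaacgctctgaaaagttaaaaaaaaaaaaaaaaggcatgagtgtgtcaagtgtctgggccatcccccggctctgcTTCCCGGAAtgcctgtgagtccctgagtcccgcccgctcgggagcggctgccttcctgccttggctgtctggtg
Sbno2, chr10:80102653-80102952, minus strand: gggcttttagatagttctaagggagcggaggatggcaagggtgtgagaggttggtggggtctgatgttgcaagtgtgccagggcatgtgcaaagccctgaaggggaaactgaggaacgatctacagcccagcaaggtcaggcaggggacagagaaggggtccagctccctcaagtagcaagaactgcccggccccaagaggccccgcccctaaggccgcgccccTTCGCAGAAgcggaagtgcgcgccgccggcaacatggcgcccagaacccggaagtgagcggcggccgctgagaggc
Stat2, chr10:128270248-128270547, plus strand: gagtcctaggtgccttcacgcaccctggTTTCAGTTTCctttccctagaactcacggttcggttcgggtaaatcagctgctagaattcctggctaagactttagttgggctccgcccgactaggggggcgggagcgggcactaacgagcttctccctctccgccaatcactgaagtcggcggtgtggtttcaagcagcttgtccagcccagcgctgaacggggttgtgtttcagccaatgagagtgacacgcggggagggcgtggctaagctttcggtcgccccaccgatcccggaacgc
Stat3, chr11:100939491-100939790, minus strand: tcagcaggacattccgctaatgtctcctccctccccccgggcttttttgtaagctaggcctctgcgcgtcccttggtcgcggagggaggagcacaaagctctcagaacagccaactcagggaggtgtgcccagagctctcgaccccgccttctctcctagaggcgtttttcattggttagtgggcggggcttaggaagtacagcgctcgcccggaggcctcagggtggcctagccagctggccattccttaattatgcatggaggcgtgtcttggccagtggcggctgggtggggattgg

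Stat5b, Stat5a and Stat3 are neighbours on chromosome 11 (GRCm38, GENCODE M21 annotation). Stat5b lies at chr11:100780731-100850724 on the minus strand, Stat5a at chr11:100859351-100885169 on the plus strand and Stat3 at chr11:100885098-100939540 on the minus strand. The 3′ ends of Stat5a and Stat3 overlap by 72 exonic bases. Stat5a and Stat5b are close paralogs, and of their transcript stretches of 75 bases 5.12% (Stat5a) and 6.99% (Stat5b) are identical in the other gene, so reads from those stretches could not be told apart. No other pair of the 9 genes shared such a stretch. Stat6 overlaps Nab2 by 40 exonic bases and Jak1 overlaps Raver2 by 4, and Stat4 shares 1033 exonic bases with Gm28177 on the same strand. Strand-specific counting is not stated, so reads in these overlaps cannot be assigned with certainty.

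Sbno2 had the largest fitted kainate difference of the 9 genes in both cell types. In neurons it stood at 332, 554 and 497 CPM in kainate replicates 1, 2 and 3, against 98.3, 116 and 124 CPM in the sham libraries. In glia the kainate libraries stood at 655, 634 and 455 CPM, and sham replicates 1 and 3 at 102 and 76.0 CPM. The lowest kainate library lay above the highest sham library in both fractions. The fitted log2 fold change of kainate over sham was 2.03 ± 0.36 (SE) in neurons and 2.70 ± 0.44 in glia. Between libraries of the same replicate number, Sbno2 was 3.37 to 4.76 times higher after kainate in the 3 neuronal pairs and 5.98 to 6.40 times higher in the 2 glial pairs.

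Stat3, the STAT that carries interleukin 6 type signals, had the second largest difference. Its levels were 148, 163 and 136 CPM in kainate neurons, and 41.8, 92.4 and 36.7 CPM in sham neurons. Kainate glia held 570, 379 and 202 CPM, and sham glia 175 and 61.0 CPM. Both fractions were separated without overlap, although in glia the lowest kainate library (replicate 3, 202 CPM) was close to the highest sham library (replicate 1, 175 CPM). Replicate 1 exceeded replicate 3 among glial libraries of either treatment. The fitted log2 fold changes were 1.39 ± 0.50 in neurons and 1.70 ± 0.59 in glia, and the ratio within same-number pairs was 1.77 to 3.71 in neurons and 3.26 to 3.32 in glia. Over the alternative fits the log2 fold change ran from 1.15 to 1.93 in neurons and from 1.13 to 2.69 in glia. The plot of CPM by library shows all 9 genes.

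**Figure D1:**
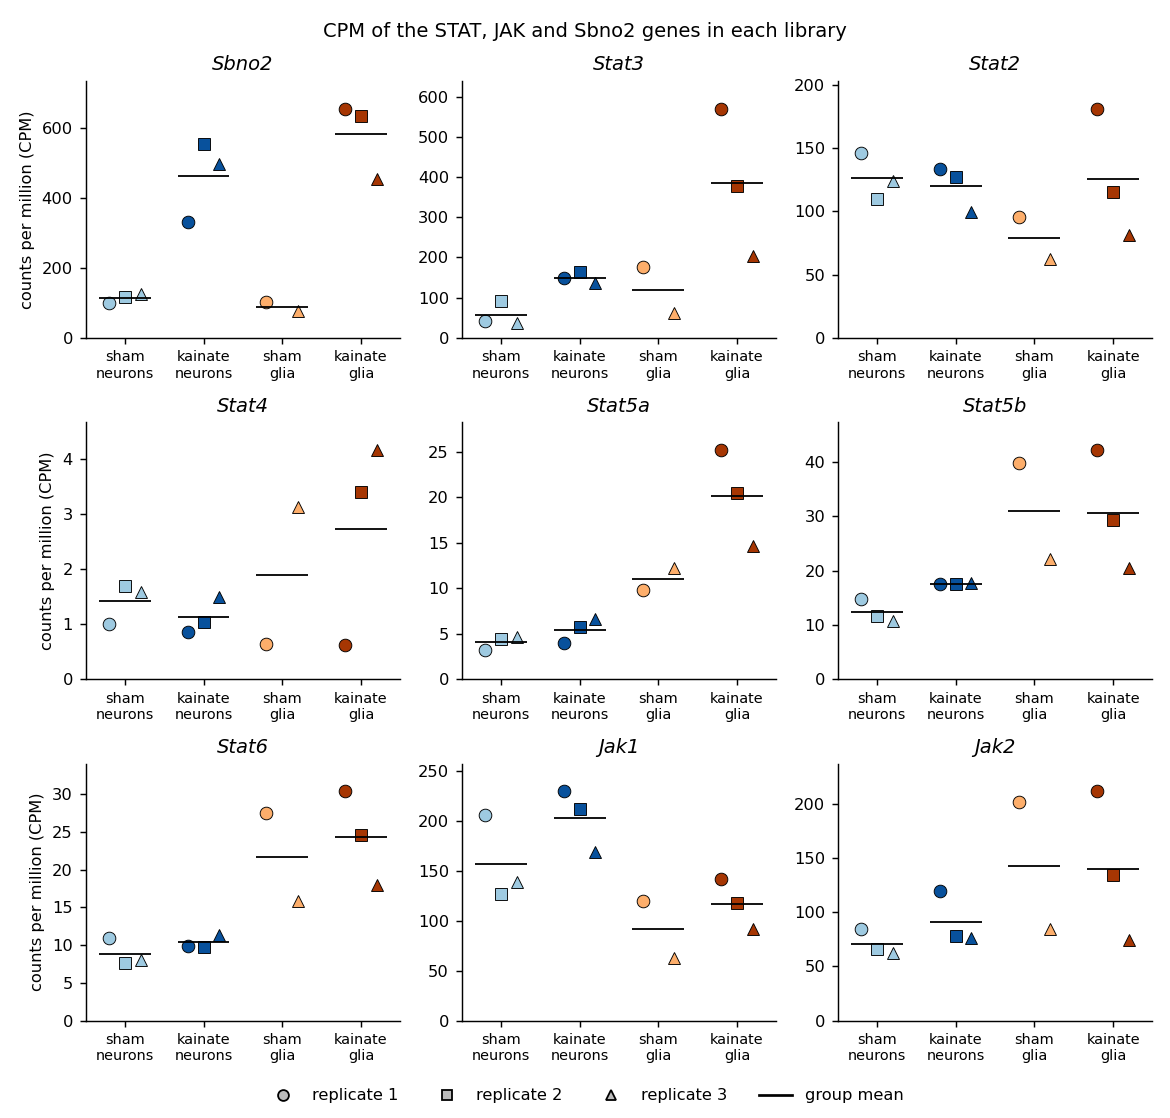
CPM (TMM-scaled, linear axis from 0) of each gene in the 11 libraries, by group, with a symbol for each replicate number and a line at the group mean. Sbno2 and Stat3 stand higher in every kainate than in every sham library of the same cell type, and Stat5a, Stat5b and Stat6 stand higher in every glial than in every neuronal library of the same treatment.

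Stat5a and Stat5b transmit growth hormone, prolactin and interleukin 2 family signals. Stat5a in glia stood at 25.2, 20.5 and 14.7 CPM after kainate and at 9.84 and 12.2 CPM in sham mice, again without overlap, with a fitted log2 fold change of 0.87 ± 0.42. In neurons it was low in all libraries, at 3.98, 5.71 and 6.62 CPM after kainate and 3.16, 4.36 and 4.67 CPM in sham mice, and the groups overlapped (0.42 ± 0.37). Stat5b showed the reverse arrangement of overlap. Its kainate neurons were within 17.5 to 17.8 CPM, above the sham neurons at 14.7, 11.7 and 10.7 CPM, with a log2 fold change of 0.51 ± 0.36. In glia Stat5b was at 42.2, 29.3 and 20.5 CPM after kainate and 39.7 and 22.2 CPM in sham mice, and the fitted difference was -0.01 ± 0.40.

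Stat2, the partner of IRF9 in type I interferon signalling, overlapped between treatments in both fractions. Kainate neurons held 134, 127 and 99.3 CPM and sham neurons 146, 110 and 124 CPM. In glia the kainate libraries held 181, 115 and 81.1 CPM and the sham libraries 95.7 and 62.6 CPM, with a fitted log2 fold change of 0.67 ± 0.41. Over the alternative fits this glial value ran from 0.21 to 1.09. Stat6, which mediates interleukin 4 and interleukin 13 signals, stood at 9.89, 9.81 and 11.3 CPM in kainate neurons and 10.9, 7.64 and 8.06 CPM in sham neurons. Its glial levels were 30.4, 24.6 and 18.0 CPM after kainate and 27.5 and 15.8 CPM in sham mice. Stat4, which acts in interleukin 12 signalling of lymphocytes, had the lowest counts of the 9 genes, 10 to 148 per library. Its levels were 0.854 to 1.49 CPM in kainate neurons, 1.01 to 1.69 CPM in sham neurons, 0.627 to 4.16 CPM in kainate glia and 0.639 to 3.12 CPM in sham glia.

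Of the kinases, Jak1, which serves nearly all cytokine receptor classes, stood at 229, 211 and 168 CPM in kainate neurons and 206, 126 and 139 CPM in sham neurons. In glia Jak1 was at 142, 117 and 91.4 CPM after kainate and 120 and 62.5 CPM in sham mice. Jak2, the kinase of the erythropoietin, growth hormone and prolactin receptors, stood at 119, 77.9 and 76.4 CPM in kainate neurons and 84.2, 66.1 and 62.3 CPM in sham neurons. Its glial levels spread widely within each treatment, at 212, 134 and 74.1 CPM after kainate and 201 and 84.1 CPM in sham mice. Kainate and sham libraries overlapped for both kinases in both fractions. In neurons the fitted log2 fold changes were 0.37 ± 0.36 for Jak1 and 0.36 ± 0.43 for Jak2, and in glia they were 0.36 ± 0.41 and -0.03 ± 0.48.

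Sbno2 was the 1 gene of the 9 called higher after kainate in neurons, where 0.157% of all genes tested were called higher, and also the 1 called higher in glia, where 0.0933% were. With the replicate number as a block, Sbno2 and Stat3 were called higher in neurons (2 of 9, against 3.19% of all genes), and Sbno2, Stat3 and Stat2 in glia (3 of 9, against 2.93%). The block leaves kainate glia replicate 2 without a sham partner, so the glial value rests on replicates 1 and 3. Groups that did not overlap, with kainate higher, were seen for Stat3, Stat5b and Sbno2 in neurons (4.26% of all genes) and for Stat3, Stat5a and Sbno2 in glia (4.7%). Stat3, Stat5a, Jak1 and Sbno2 were higher after kainate in 5 of 5 same-number pairs over both fractions, as were 7.16% of all genes. Over the 9 genes the median log2 fold change was 0.37 in neurons and 0.54 in glia, against -0.01 and 0.02 over all genes tested. These counts come from the comparisons on which the genes were chosen, and nothing is read from them. The plot of fitted kainate differences shows both fits.

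**Figure D2:**
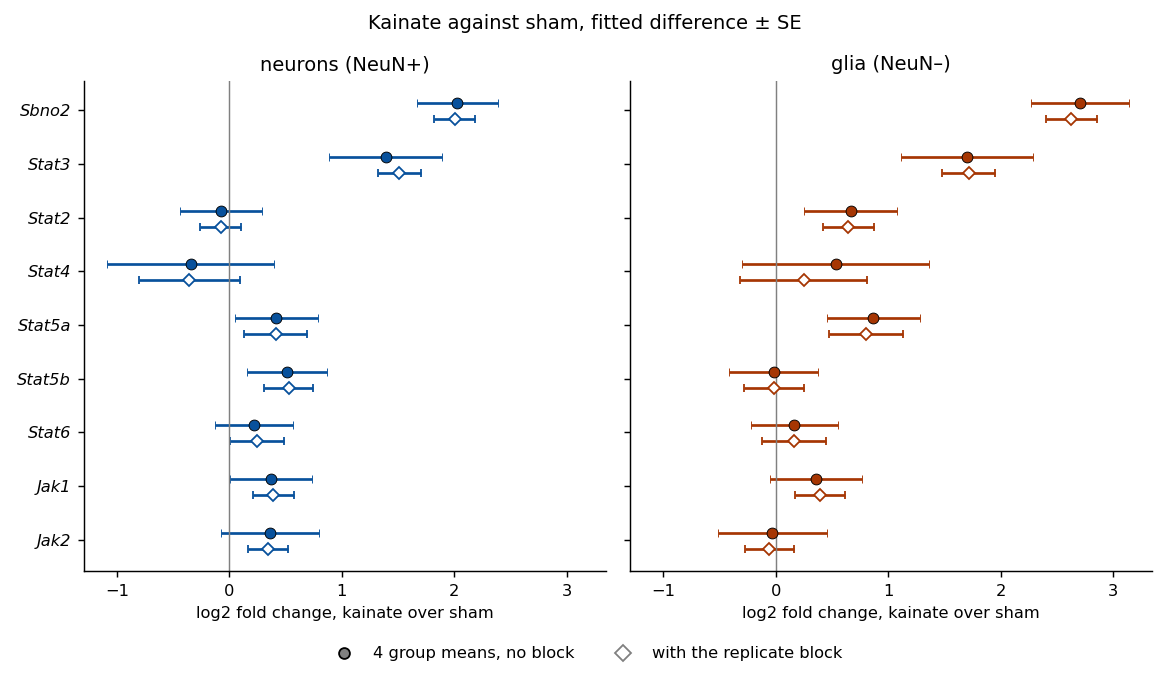
Fitted log2 fold change of kainate over sham for each gene in neurons (left) and glia (right), where filled circles are the fit of 4 group means, open diamonds the fit with the replicate block, and bars ± 1 SE. Sbno2 (2.03 and 2.70) and Stat3 (1.39 and 1.70) lie farthest to the right in both panels.

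The Sbno2 call without the block depended on the libraries used. In neurons its FDR was between 0.254 and 0.757 without a filter on low counts, or when kainate neurons replicate 2 or 3, any of the 3 sham neuron libraries or kainate glia replicate 2 was left out, while the fitted log2 fold change stayed within 1.88 to 2.22 over all alternatives. In glia the call was lost in a fit of the glial libraries alone, without both low-input libraries, and without kainate glia replicate 1 or 2 or sham glia replicate 1, with fold changes of 2.50 to 2.96.

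Glial markers were also compared between treatments. In neuronal libraries the summed level of the 6 microglial markers was 39.9 to 57.6 CPM after kainate and 28.2 to 34.4 CPM in sham mice, and that of the 5 astrocyte markers 212 to 284 CPM and 152 to 213 CPM. No astrocyte or microglial marker was at 0 in a library. In glial libraries the 4 oligodendrocyte markers summed to 3883 to 24323 CPM after kainate and 7325 to 34507 CPM in sham mice, the astrocyte markers to 347 to 2269 CPM and 959 to 3767 CPM, and the microglial markers to 578 to 1746 CPM and 553 to 3045 CPM. No marker was called between treatments in either fraction without the block. With it, 3 of 5 astrocyte, 2 of 6 microglial, 3 of 4 oligodendrocyte and 2 of 2 oligodendrocyte precursor markers were lower after kainate in glia. In neurons 3 of 5 astrocyte markers were then higher and 2 lower, and 2 of 6 microglial markers higher and 1 lower, and 1 of 4 oligodendrocyte markers was lower. The block also called neuronal markers higher after kainate, 2 of 6 in neurons and 1 of 6 in glia, and no endothelial, pericyte or leukocyte marker. The part of these markers in the kainate differences was not tested.

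The difference of the kainate effect between neurons and glia was called for 0 of the 9 genes by edgeR, against 0.00246% of all genes called higher and 0.0% lower, and 0 of the 9 had an unadjusted p under 0.05. DESeq2 also called 0 of the 9. With the pool as a block, called percentages were 0.0172% higher and 0.00491% lower over all genes and again 0 of the 9 genes, and blocking on replicate numbers inside each fraction gave 1.23% higher and 0.702% lower, and 0 of the 9. For Sbno2 the effect in neurons minus that in glia was -0.68 ± 0.52 on the log2 scale, for Stat3 -0.31 ± 0.74, for Stat2 -0.74 ± 0.55 and for Stat5b 0.53 ± 0.53. The standard errors of the 9 differences ran from 0.52 to 1.11.

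The comparison of neurons with glia separated the family. The choice of genes did not use this comparison itself. It did use the same libraries through the kainate differences, so the comparison is not fully independent of the choice, least of all in kainate mice. Stat5a, Stat5b and Stat6 were called lower in neurons than in glia in sham mice, and Stat3 joined them in kainate mice. Jak1 was called higher in neurons in kainate mice. Stat5a differed most. Its neuronal libraries held 3.16 to 6.62 CPM in both treatments together and its glial libraries 9.84 to 25.2 CPM. The log2 fold change of neurons over glia was -1.43 ± 0.40 in sham mice (FDR = 0.0393) and -1.88 ± 0.37 in kainate mice (FDR = 0.00483), both by edgeR, and the call held in each of the 22 alternatives for either treatment.

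Stat6 was lower in neurons by a similar amount in both treatments, with log2 fold changes of -1.29 ± 0.38 in sham (FDR = 0.0514, edgeR) and -1.23 ± 0.35 in kainate mice (FDR = 0.0382). The highest neuronal library was at 11.3 CPM and the lowest glial library at 15.8 CPM. Stat5b differed by -1.33 ± 0.39 in sham (FDR = 0.0505, edgeR) and by -0.80 ± 0.36 in kainate mice (FDR = 0.219), with neuronal libraries at 10.7 to 17.8 CPM and glial libraries at 20.5 to 42.2 CPM. In sham mice both calls rested on sham glia replicate 1, a low-input library: without it the log2 fold changes were -0.81 for Stat5b (FDR = 0.281, edgeR) and -0.80 for Stat6 (FDR = 0.282). Stat6 stayed called in kainate mice in all 22 alternatives, and Stat5b in 12 of them. The Stat5b value in kainate mice was -0.46 without kainate glia replicate 1 (FDR = 0.479, edgeR) and -1.16 without kainate glia replicate 3 (FDR = 0.0265).

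Stat3 was lower in neurons by 1.05 ± 0.55 on the log2 scale in sham mice, which was not called (log2 fold change -1.05, FDR = 0.362, edgeR), and by a called -1.36 ± 0.50 in kainate mice (FDR = 0.123). The sham value rested on sham glia replicate 1: without it the log2 fold change was -0.06 (FDR = 0.951), and over the 22 alternatives it ran from -1.63 to -0.06. The kainate libraries did not overlap, at 136 to 163 CPM in neurons and 202 to 570 CPM in glia, whereas sham neurons replicate 2 (92.4 CPM) lay above sham glia replicate 3 (61.0 CPM). With the pool of hippocampi as a block Stat3 was called in both, at -1.40 ± 0.39 in sham (FDR = 0.0322) and -1.24 ± 0.32 in kainate mice (FDR = 0.0165). The kainate call without the block was lost when any 1 of the 3 kainate neuron libraries or kainate glia replicate 1 was left out (FDR = 0.262 to 0.336), with log2 fold changes from -1.43 to -0.93.

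Jak1 was the 1 gene of the 9 that was higher in neurons in both treatments in every pool. The log2 fold change was 0.79 ± 0.42 in sham mice (FDR = 0.374, edgeR, not called) and 0.80 ± 0.36 in kainate mice (FDR = 0.236, called). With the pool block both were called, at 0.97 ± 0.25 (FDR = 0.0201) and 0.81 ± 0.20 (FDR = 0.0143). Without sham glia replicate 1 the sham value was 1.37 (FDR = 0.139, called) and without replicate 3 it was 0.39 (FDR = 0.643). Within pools Jak1 was 1.72 to 2.22 times higher in neurons than in glia in sham mice and 1.61 to 1.84 times in kainate mice. Without the block the kainate call was lost in 9 of 22 alternatives, among them leaving out any of the kainate neuron libraries, the sham neuron libraries 2 and 3 in turn, and the kainate glia libraries 2 and 3 in turn.

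Jak2 stood on the other side of 0. Its log2 fold change of neurons over glia was -1.01 ± 0.48 in sham (FDR = 0.292, edgeR) and -0.62 ± 0.44 in kainate mice (FDR = 0.458). Both were called with the pool block, at -0.85 ± 0.31 (FDR = 0.0918) and -0.52 ± 0.25 (FDR = 0.158). Each value moved with single glial libraries. In sham mice Jak2 was at -0.21 without sham glia replicate 1 (FDR = 0.793) and -1.51 without replicate 3 (FDR = 0.0811). In kainate mice it was at -0.17 without kainate glia replicate 1 (FDR = 0.814) and -1.07 without replicate 3 (FDR = 0.0739). Stat2 differed by 0.67 ± 0.41 in sham mice (FDR = 0.48, edgeR; 0.79 ± 0.27 and FDR = 0.0706 with the block), where every neuronal library was above every glial one. Without sham glia replicate 1 this difference was 1.05 (FDR = 0.235) and without replicate 3 it was 0.40 (FDR = 0.653). In kainate mice its fitted difference was -0.07 ± 0.36 (FDR = 0.923) and the libraries overlapped.

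Sbno2 was not called between neurons and glia in either treatment. It differed by 0.34 ± 0.39 in sham mice (FDR = 0.75, edgeR) and by -0.34 ± 0.35 in kainate mice (FDR = 0.604), and it was higher in neurons in 2 of 5 pools. Stat4, at its low counts, differed by -0.40 ± 0.82 in sham (FDR = 0.86) and -1.27 ± 0.75 in kainate mice (FDR = 0.369, or 0.189 and called with the block, at -1.07 ± 0.55). The plot of neurons against glia gives all values.

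**Figure D3:**
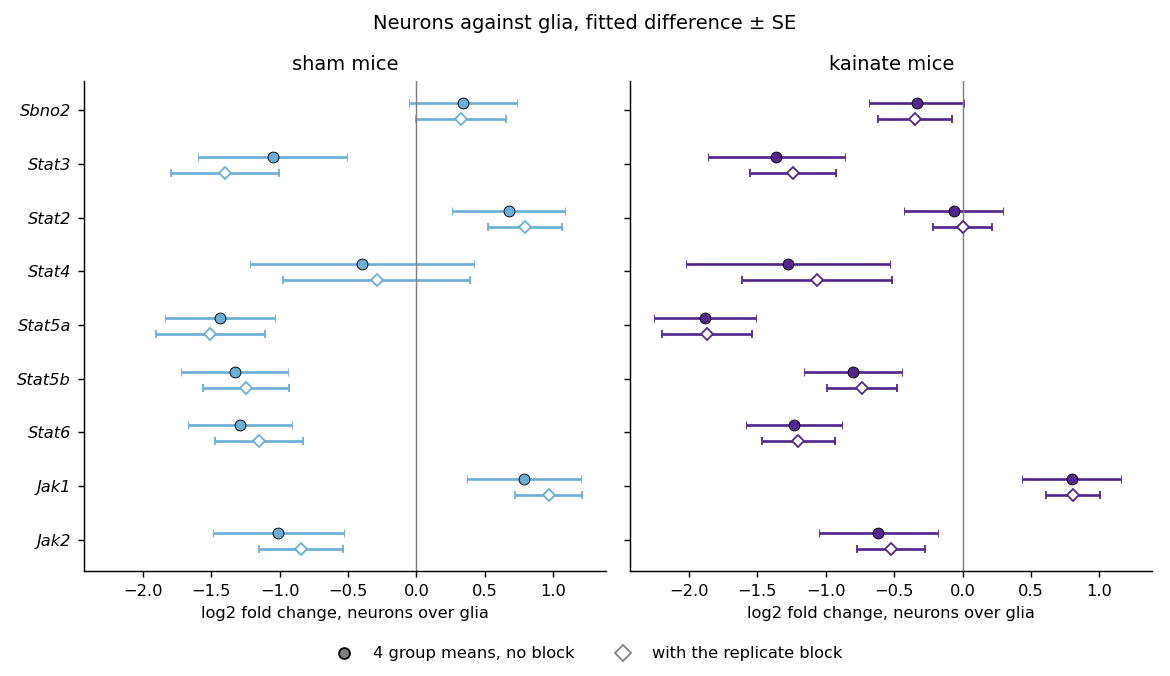
Fitted log2 fold change of neurons over glia for each gene in sham (left) and kainate mice (right), where filled circles are the fit of 4 group means, open diamonds the fit with the pool as a block, and bars ± 1 SE. Stat5a (-1.43 and -1.88) and Stat6 (-1.29 and -1.23) lie left of 0 and Jak1 (0.79 and 0.80) right of it in both panels.

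In sham mice 3 of the 9 genes were thus called lower in neurons, against 7.63% of all genes, and 0 higher, against 9.11%. In kainate mice 4 were called lower (9.39% of all genes) and 1 higher (11.3%). With the pool block, sham mice gave 5 lower (15.7%) and 2 higher (18.3%), and kainate mice 6 lower (27.9%) and 1 higher (21.4%). The block leaves sham neurons replicate 2 without a glial partner, so the sham value rests on replicates 1 and 3. Libraries of the treatments taken separately did not overlap, with neurons lower, for Stat5a, Stat5b and Stat6 in sham mice (12.5% of all genes) and for these and Stat3 in kainate mice (16.4%). Neurons were higher without overlap for Stat2 and Jak1 in sham mice (14.4%) and for Jak1 in kainate mice (14.8%). Over the 5 pools with both fractions, Stat3, Stat5a, Stat5b and Stat6 were lower in neurons in 5 of 5 (19.4% of all genes) and Jak1 was higher in 5 of 5 (21.2%). The median log2 fold change over the 9 genes was -1.01 in sham and -0.80 in kainate mice, against -0.37 and -0.47 over all genes tested. The sham and kainate comparisons come from separate libraries. The part of cell composition within the glial fraction in these differences was not tested.

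Per kilobase of annotated exon, the scale on which genes can be compared, Jak1 (21.7 CPM per kilobase) and Stat2 (21.3) led in sham neurons and their ranges overlapped. Jak2 (14.1), Sbno2 (10.5) and Stat3 (5.98) followed, with Sbno2 and Stat3 overlapping. Stat5b (2.23), Stat6 (2.02), Stat5a (0.570) and Stat4 (0.369) were the lowest in that order, and only Stat5b and Stat6 overlapped among them. In kainate neurons Sbno2 led at 43.0 CPM per kilobase, overlapping with Jak1 (28.1), ahead of Stat2 (20.3), Jak2 (18.1) and Stat3 (15.7), of which Stat2 and Jak2, and Jak2 and Stat3, overlapped.

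In sham glia the order per kilobase was Jak2 (28.4 CPM per kilobase), Stat2 (13.4), Jak1 (12.6), Stat3 (12.4) and Sbno2 (8.32), where each neighbouring pair from Stat2 down to Stat5b (5.59) overlapped. In kainate glia it was Sbno2 (54.3), Stat3 (40.3), Jak2 (27.8), Stat2 (21.2) and Jak1 (16.2), each overlapping with the next. Stat5b, Stat6, Stat5a and Stat4 kept the lowest places in all 4 groups, and Sbno2 moved from the fourth place in sham neurons and the fifth in sham glia to the first in both kainate groups.

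**Figure D4:**
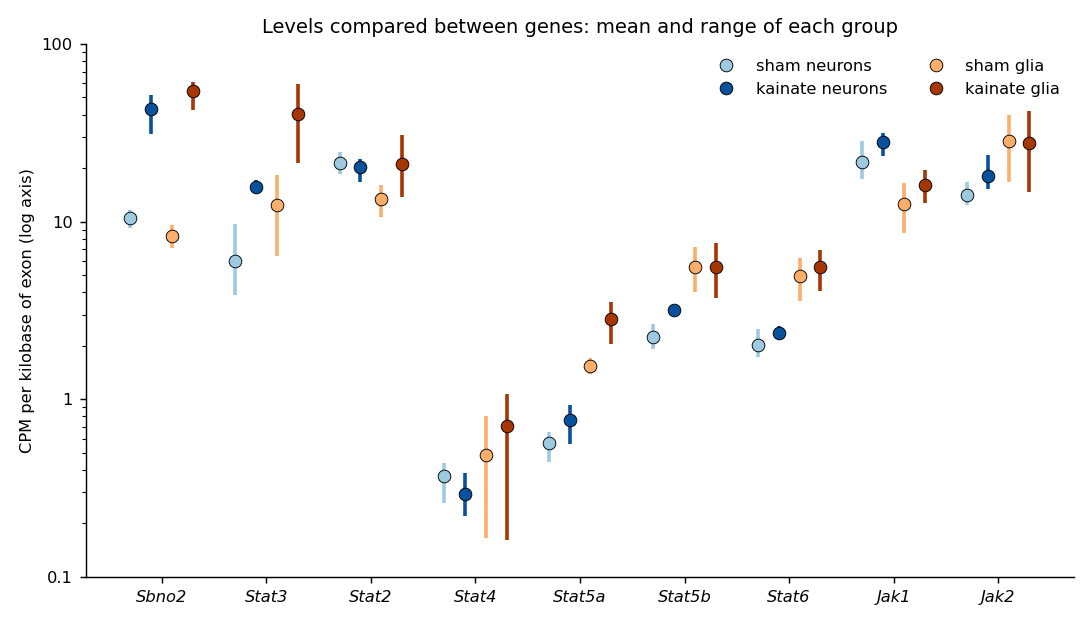
CPM per kilobase of exon (log axis) of each gene in the 4 groups, with points at the group mean and bars from the lowest to the highest library. Sbno2 has the highest mean in kainate neurons (43.0) and kainate glia (54.3), and Stat4 lies under 1 in every group mean.

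Across all 11 libraries, the genes whose log2 CPM followed Sbno2 most closely, among 24722 genes with a mean of at least 1 CPM, were Kdm6b (Pearson r = 0.95), a histone demethylase, Timp1 (0.94), an inhibitor of metalloproteinases, Gadd45g (0.94), a stress response gene, Fos (0.94), an immediate early transcription factor, and Itpkc (0.93), an inositol phosphate kinase. For Stat3 they were Eaf1 (0.96), Mapk6 (0.95), Trib1 (0.93), Bag3 (0.93) and Ccn1 (0.93). The points share treatment and replicate number, so r describes the libraries only. Among the 9 genes themselves the closest pair was Stat5b and Stat6 (r = 0.96), followed by Stat5b with Jak2 (0.90) and Stat5a with Stat6 (0.87). Stat3 and Sbno2 had r = 0.78. Jak1 ran with Stat2 (0.76) and against Stat4 (-0.65) and Stat5a (-0.59).

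Other genes of the pathway were taken from 6 lists drawn up from general knowledge with earlier results known. Nothing is therefore read from the kainate counts of these lists. Their counts stand beside the shares of all genes tested: without a block 0.157% were called higher after kainate in neurons and 0.0933% in glia, and with the replicate block 3.19% higher and 1.9% lower in neurons and 2.93% higher and 2.86% lower in glia. Of 9 cytokines that act through gp130, 1 was called higher after kainate in neurons and none in glia (medians 0.11 and 0.10 on the log2 scale). The called gene was Clcf1, a ligand of the CNTF receptor, at 6.26 to 11.5 CPM in kainate and 0.739 to 2.21 CPM in sham neurons, with a log2 fold change of 2.61 ± 0.48. With the replicate block 2 of the 9 were called higher and 1 lower in neurons, and 4 were called higher in glia. The glial ones, named because of these values, were Lif (3.07), Il11 (2.49), Clcf1 (1.98) and Osm (1.41), on the log2 scale. Of 19 receptors that signal through JAKs, none was called in either fraction (medians 0.35 in neurons and -0.31 in glia). With the block 4 were called higher and 1 lower in neurons, and 4 higher and 2 lower in glia.

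Of 17 inhibitors of the pathway, 1 was called higher in each fraction, and in both it was Socs3, the feedback inhibitor of gp130 signalling. Its CPM was 39.8 to 91.1 in kainate against 3.06 to 3.22 in sham neurons, and 375 to 650 in kainate against 10.3 to 10.7 in sham glia, for log2 fold changes of 4.47 ± 0.43 and 5.50 ± 0.54. The median of the inhibitors was 0.25 in neurons and 0.37 in glia. With the block 2 of 17 were called higher in neurons, and 6 higher and 1 lower in glia.

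Of 17 genes known as STAT3 targets, 2 were called higher in neurons and 7 in glia, none lower, and the medians were 1.43 and 2.38. In neurons these were Fos (3.09 ± 0.59) and Timp1 (3.31 ± 0.66), and in glia they included Fos (5.67 ± 0.80), Myc (2.92 ± 0.43), Timp1 (5.64 ± 0.89) and Junb (3.78 ± 0.64). Fos, Myc and Junb are also known as immediate early genes. With the block 11 of the 17 were called higher in neurons, against 3.19% of all genes, and 15 in glia, against 2.93%. The list was drawn up with earlier results known, so nothing is read from these counts. The difference between the fractions was called for none of the 17 without a block, and with the pool block for 1, Cebpd, a transcription factor of the acute phase response, named because of this value (log2 difference of neurons minus glia -3.11 ± 0.34, FDR = 0.0325, edgeR). When replicate numbers inside each fraction formed the block, 9 of the 17 had a kainate effect called lower in neurons than in glia and 1 called higher, against 0.702% and 1.23% of all genes. In that fit 3 of 5 astrocyte, 2 of 6 microglial, 1 of 4 oligodendrocyte and 1 of 2 oligodendrocyte precursor markers were called higher in the same difference, and their part was not tested.

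Of 10 genes around STAT2, its partner Irf9 and interferon-stimulated genes, none was called after kainate in either fraction (medians 0.24 in neurons and 0.73 in glia), and with the block 1 was higher in neurons and 3 in glia. The 4 remaining relatives, among them Jak3, Tyk2 and the Sbno2 paralog Sbno1, had medians of -0.04 and 0.11 with no call. With the block Jak3 was called higher in both fractions (0.92 ± 0.23 in neurons and 1.17 ± 0.28 in glia) and Tyk2 lower in neurons (-0.59 ± 0.18), and both are named because of these values. The plot of the 6 lists shows their spread.

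**Figure D5:**
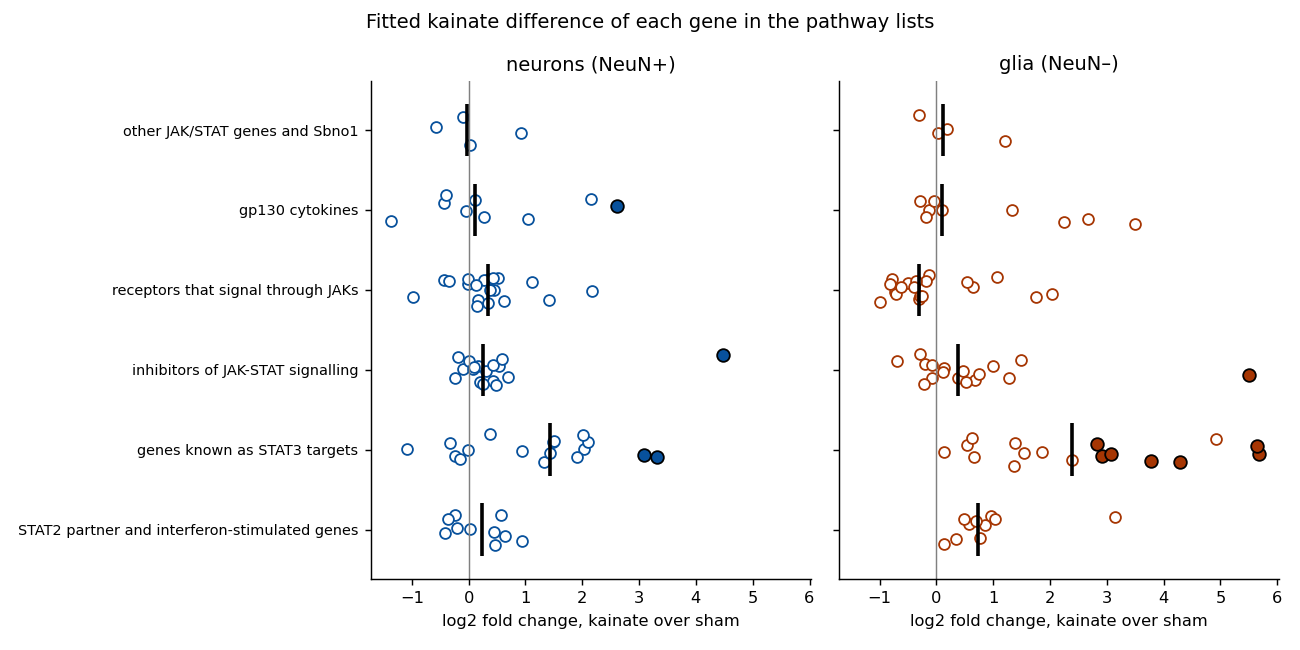
Fitted log2 fold change of kainate over sham for each gene of the 6 pathway lists in neurons (left) and glia (right), where filled points are genes called at an FDR under 0.25 without a block, open points the rest, and black bars the list medians. The STAT3 target list has the highest median in both panels (1.43 and 2.38), and the single filled inhibitor in each panel is Socs3.

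Between neurons and glia, the receptors, gp130 cytokines and STAT2 list had medians of -1.19, -1.19 and -1.22 on the log2 scale in sham mice and -0.50, -1.50 and -1.70 in kainate mice, under the medians of -0.37 and -0.47 over all genes tested. The inhibitors (-0.08 and -0.07) and the 4 remaining relatives (-0.07 and -0.21) had medians above those of all genes. The shares of all genes called, given above, were 7.63% lower and 9.11% higher in sham mice and 9.39% and 11.3% in kainate mice. In sham mice 10 of 19 receptors were called lower in neurons and 1 higher, and in kainate mice 8 lower and 2 higher. Csf3r, the granulocyte colony-stimulating factor receptor, had a log2 fold change of -5.25 ± 0.70 in sham mice (FDR = 0.00139, edgeR), and Il4ra, the receptor chain upstream of STAT6, -2.12 ± 0.38 (FDR = 0.00328). In kainate mice Il4ra was at -2.47 ± 0.36 (FDR = 0.00122) and Csf3r at -4.29 ± 0.65 (FDR = 0.00123). Of the gp130 cytokines 2 were called lower in neurons in sham and 5 in kainate mice. Clcf1 was among them in both, at -2.80 ± 0.52 in sham (FDR = 0.00364, edgeR) and -2.43 ± 0.47 in kainate mice (FDR = 0.00411).

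STAT3 targets were called lower in neurons for 4 of 17 and higher for 3 in sham mice, and lower for 11 and higher for 0 in kainate mice, with medians of -0.55 and -1.95. This list was drawn up with earlier results known, so these counts are a description and not a test. Ccl2, a monocyte chemokine, was at -3.65 ± 0.48 in kainate mice (FDR = 0.00122, edgeR) and Icam1, an adhesion molecule for leukocytes, at -4.61 ± 0.73 (FDR = 0.00148). Of the STAT2 list 5 of 10 were lower in sham and 7 of 10 in kainate mice, none higher, led in kainate mice by Ifit3 (-2.08 ± 0.51, FDR = 0.0168) and Mx1 (-2.77 ± 0.71, FDR = 0.0226). Inhibitors were lower for 2 and higher for 1 of 17 in sham, and lower for 4 and higher for 2 in kainate mice, and with the pool block lower for 4 and higher for 6 in sham (all genes: 15.7% and 18.3%), and lower for 7 and higher for 5 in kainate mice (27.9% and 21.4%). Of the 4 relatives 1 was called higher in sham and 2 lower in kainate mice. Ptpn6, a phosphatase of blood and microglial cells, was lower in neurons in both (-3.50 ± 0.64, FDR = 0.00368, and -3.03 ± 0.60, FDR = 0.00483, edgeR). Socs3 was lower as well (-1.74 ± 0.42, FDR = 0.017, and -2.77 ± 0.40, FDR = 0.00122) and Socs2 higher (2.53 ± 0.50, FDR = 0.00572, and 1.47 ± 0.41, FDR = 0.0367).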

How the data were processed

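Raw read counts per gene (GENCODE M16) in 11 mRNA libraries were deposited by the authors, who amplified polyadenylated RNA of sorted nuclei (SMART-Seq v4, ThruPlex) and counted uniquely mapped reads on mm10; the sequencing platform of each library is not given in the sources used here. All columns belonged to these libraries (0 unmapped), and the 11 bisulfite samples were not analysed here. The 105 of 53379 genes without a symbol in GENCODE M21 were left out. Counts were fitted with edgeR 4.0.16 in R 4.3.3 (filterByExpr with a minimum count of 10, TMM, glmQLFit with the legacy method, 4 group means over all 11 libraries), and SE was derived from the F statistic. CPM per kilobase used the union of annotated exons. The fit was tested on simulated data. DESeq2 1.42.0, other filters, separate fits, RNA input, left-out libraries and blocks were the alternatives. The 9 genes and all lists were chosen with earlier results of these data known. All 9 genes are described. Of a list, genes called in the comparison were named by smallest p, at most 4, together with the 5 genes most correlated with Sbno2 and with Stat3.

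Deviations from group means correlated between kainate and sham libraries of the same number at 0.643, 0.161 and 0.491 in neurons and 0.760 and 0.787 in glia, so the numbers were taken as pairs, from the data and not from the labels. Both fractions of a pool come from the same mice by design, and there the correlations were 0.240 to 0.668. Separate pools are the replicates within a group. The fit of group means took all libraries as independent and did not use the pairing of fractions within a pool. Its p-values measure the spread between libraries within groups, also where neurons are compared with glia. In the fits with a block, p-values measure the spread left after effects of pool or replicate number are removed.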

Additional observations from a re-analysis of the deposited data

How the results depend on the processing

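Over the 22 alternatives of each comparison, which were run for the 9 genes alone, the direction of each of these between neurons and glia was kept except for Stat4 in sham mice without sham glia replicate 3 (log2 fold change 1.16) and Stat2 in kainate mice with the replicate block by pool (0.00054), without kainate neurons replicate 3 (0.05) and without kainate glia replicate 1 (0.32). None of those values was called, and with 1 library left out these 2 values ran from -1.08 to 1.16 and from -0.45 to 0.32. The number of the 9 genes called was 1 for kainate against sham in neurons and became 2 with the replicate block, 3 with the block among protein-coding genes only, 0 with no filter on low counts, and 0 to 1 when 1 library was left out. For kainate against sham in glia it was 1 and became 3 with the block, 4 with the block among protein-coding genes, 0 in a separate fit, 0 without both low-input libraries, and 0 to 1 with 1 library left out. The difference of the kainate effects stayed at 0 under all of them. For neurons against glia in sham mice the count of 3 became 7 with the pool block, 7 among protein-coding genes with or without it, 6 with a filter of 1 CPM in 3 libraries, 5 with the DESeq2 Wald test, 5 in a separate fit, 2 without both low-input libraries, and 3 to 5 with 1 library left out. In kainate mice the count of 5 became 7 with the pool block, 8 with it among protein-coding genes, 3 with no filter, 3 without both low-input libraries, and 2 to 6 with 1 library left out, the lowest without any of the 3 kainate neuron libraries. At an FDR under 0.05 the counts of these 5 comparisons, in the order given, were 0, 0, 0, 1 and 2. Restriction to protein-coding genes was chosen after seeing the data. Why the block moves the calls was not tested beyond the correlations of same-number libraries, and with 2 sham glia libraries each glial sham value has little replication. Counts were lowest for Stat4 (10 to 148 per library) and Stat5a (47 to 605), so counting error is largest for these genes.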
